A study of Mus musculus with 8 samples.

Results

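Immediate early genes are switched on within minutes of a stimulus, from transcription factors already present in the cell, and their transcripts are short-lived. In sensory neurons, action potentials and calcium entry activate kinases (ERK, CaM kinases and the RSK and MSK families) that act on serum response factor and CREB at the promoters of these genes. Many of the products are themselves transcription factors, and others are phosphatases that end the signal. Glia, endothelial cells and immune cells switch on the same genes, so in whole ganglia a level is a sum over cell types, and more cells of a type cannot be told apart from more RNA per cell.

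The 8 genes described here were Fos, Fosb, Egr1, Junb, Arc, Nr4a1, Dusp1 and Ier2, chosen by symbol from the 40800 gene identifiers of the deposited table, and each symbol matched 1 identifier. RNA sequencing measured them in the dorsal root ganglia, the clusters of sensory nerve cell bodies beside the spinal cord, of 6-month-old mice. The wild types, replicates 1, 3, 4 and 8 in the labels, are given as C57BL/6. The mutants, replicates 1 to 4, are homozygous for a gene trap in Tmem184b on a C57BL/6 background. A gene trap is present in every cell of the animal, and the labels do not say whether the wild types were littermates, what sex the mice were, or how long after death and at what time of day the ganglia were taken. The design text speaks of 4 mice of each genotype, and each sample is taken here as 1 mouse.

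The libraries held 6177680 to 7975562 reads assigned to genes. Tmem184b, which checks the genotype labels, stood at 164 to 183 CPM (reads scaled to a common library size) in wild-type mice and at 5.24 to 8.30 CPM in mutant mice. The summed level of 8 sensory neuron markers was 13.0 to 13.14 log2 CPM in wild-type and 13.0 to 13.1 in mutant ganglia, so the labelled tissue carried its markers in every library. Skeletal muscle markers, which mark tissue taken along in dissection, summed to 1.80 to 5.12 log2 CPM in wild-type and 3.47 to 7.34 in mutant ganglia. Of 15030 genes tested, 820 (5.46%) differed between genotypes at an adjusted p under 0.05 in limma, 423 higher (2.81%) and 397 lower (2.64%) in the mutant. Median centring of the samples made the split 204 higher and 706 lower. The running numbers in the column names set wild type 8 apart from the other 3 wild types and are consecutive in the mutants. Their meaning is not stated, and a batch recorded in them cannot be told apart from genotype.

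None of the 8 immediate early genes was called between mutant and wild type, against 5.46% of all tested genes (2.81% higher, 2.64% lower). At an unadjusted p under 0.05, 2 of 8 (Junb and Nr4a1) passed in limma, where 21.3% of all tested genes did, and limma's voom on the recovered reads likewise gave 0 calls and 2 genes under 0.05. The genotypes did not overlap for 1 gene, Junb, which is 12.5% of the 8 against 12.4% of all tested genes. The median log2 difference (mutant minus wild type) over the 8 genes was -0.032, beside 0.066 over all tested genes, and 3 genes lay above 0 and 5 below. Wild type 8 had the highest level of the 8 samples in 6 of the 8 genes (Fos, Fosb, Egr1, Junb, Arc and Ier2), while it was the highest of the 8 in 9.98% of all tested genes. For Fos and Fosb its exact binomial 95% interval (counting error only) lay clear of that of the next sample. For Egr1, Junb, Arc and Ier2 these intervals overlapped. With wild type 8 left out the median over the 8 genes was 0.216, and none was called, where 4.38% of all tested genes were.

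**Figure D1:**
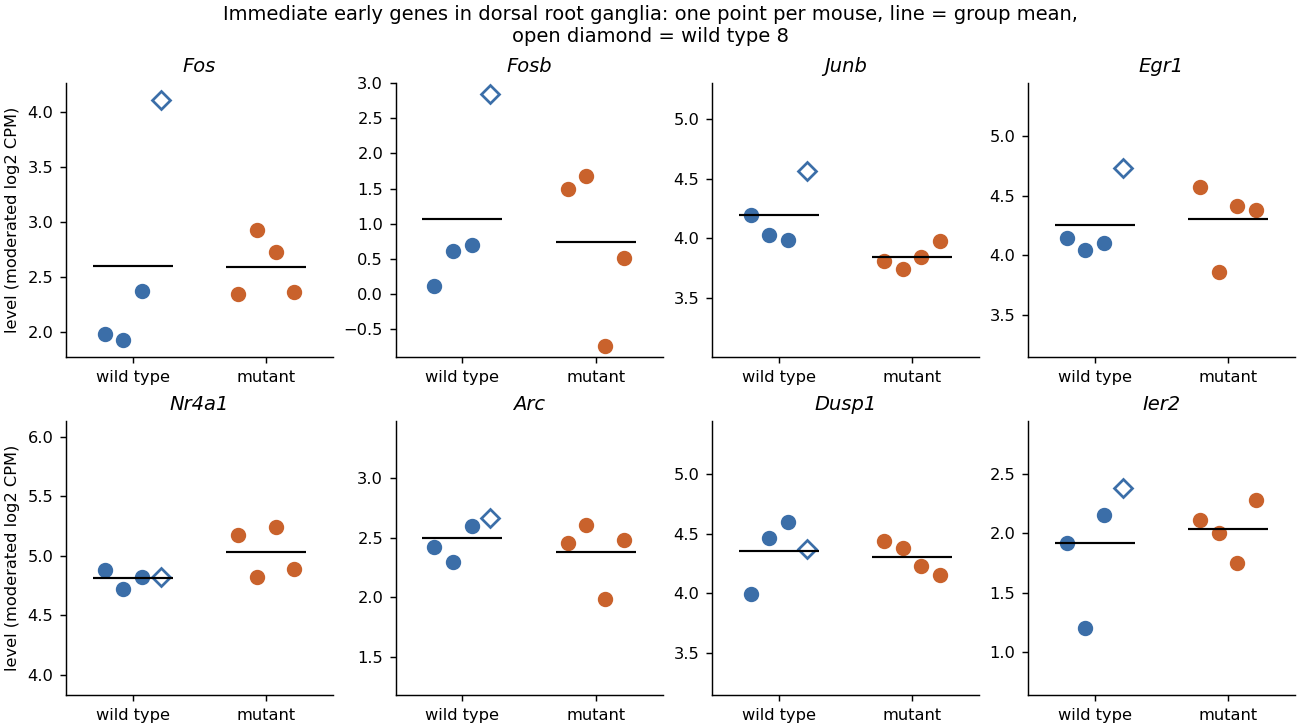
Level of each immediate early gene (moderated log2 CPM, vertical axis) in 4 wild-type and 4 mutant mice, 1 point per mouse, with the group mean as a line and vertical ranges that differ between genes. The open diamond, wild type 8, lies above every other sample for Fos (4.11) and Fosb (2.85) and among the other samples for Nr4a1 and Dusp1.

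Promoter sequences are shown for the AP-1 genes, which were high together in wild type 8, and for Nr4a1, which was not. Each is the 250 bases before the RefSeq transcription start on GRCm38.p6. The Nr4a1 window lies inside the annotated Nr4a1 gene (101254269 to 101274795), so a further annotated start lies upstream of it. Capitals mark the letters TGACG or their complement CGTCA, the core of the cyclic AMP response element (CRE) through which CREB acts. Windows of 5 of the 8 genes were searched, Dusp1 being the fifth, and those of Egr1, Arc and Ier2 were not. The Dusp1 window lies partly in an annotated transcript and is not printed.
Fos, chr12:85473640-85473889, plus strand: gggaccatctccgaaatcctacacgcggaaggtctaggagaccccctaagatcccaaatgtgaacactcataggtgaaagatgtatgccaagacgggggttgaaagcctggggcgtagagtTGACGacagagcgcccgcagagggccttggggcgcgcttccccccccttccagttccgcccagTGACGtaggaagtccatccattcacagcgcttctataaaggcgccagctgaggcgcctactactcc
Fosb, chr7:19310046-19310295, minus strand: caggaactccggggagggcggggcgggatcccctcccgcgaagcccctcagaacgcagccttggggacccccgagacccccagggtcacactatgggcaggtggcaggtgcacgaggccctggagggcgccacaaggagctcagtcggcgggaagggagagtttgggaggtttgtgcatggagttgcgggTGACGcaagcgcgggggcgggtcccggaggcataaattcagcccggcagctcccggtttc
Junb, chr8:84978749-84978998, minus strand: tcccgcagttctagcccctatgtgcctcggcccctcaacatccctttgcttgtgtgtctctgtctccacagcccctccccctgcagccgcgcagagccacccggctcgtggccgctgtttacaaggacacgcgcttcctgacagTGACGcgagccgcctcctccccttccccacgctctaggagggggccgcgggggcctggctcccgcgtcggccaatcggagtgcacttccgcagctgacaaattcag
Nr4a1, chr15:101266596-101266845, plus strand: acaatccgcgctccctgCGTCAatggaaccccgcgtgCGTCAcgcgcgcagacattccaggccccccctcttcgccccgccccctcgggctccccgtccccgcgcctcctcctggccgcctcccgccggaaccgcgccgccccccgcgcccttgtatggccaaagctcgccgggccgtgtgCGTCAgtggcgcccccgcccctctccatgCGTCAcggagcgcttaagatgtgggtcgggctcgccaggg

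The CRE core TGACG, searched on both strands, was present in all 5 of these promoters. It was also in 17.8% of 32851 promoter windows of the same length, which were not matched for base composition. It lay at -129 and -66 (first base, counted back from the transcription start) in Fos, at -60 in Fosb and at -106 in Junb, and Nr4a1 held 4 copies, at -233, -213, -69 and -40. Dusp1 held the whole palindrome TGACGTCA at -143, which 1.55% of windows hold and which contains the core on both strands, and a further core at -191. The AP-1 site TGANTCA (6.75% of windows) and the CArG box bound by serum response factor (1.47%) were found in none of the 5 windows. Bases further upstream were not searched. An EGR site, GCGGGGGCG on either strand (2.57%), lay in Fosb at -50 and in Nr4a1 at -60, and TATAAA on either strand (12.4%) lay in Fos at -33. The core was thus in promoters of genes that were high in wild type 8 and of genes that were not. A match is a run of letters and not a measured binding site.

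Fos, Fosb and Junb encode subunits of AP-1, the dimeric factor formed by a Fos and a Jun protein. Fos (ENSMUSG00000021250; chromosome 12, 85473890 to 85477273, plus strand, GRCm38) had 23, 28, 33 and 134 reads in wild types 1, 3, 4 and 8 and 32, 45, 41 and 34 reads in mutants 1 to 4. In log2 CPM the wild-type levels were 1.98, 1.92, 2.37 and 4.11 and the mutant levels 2.34, 2.92, 2.72 and 2.36. All 4 mutants lay below wild type 8 and above wild types 1 and 3, and the groups overlapped. In CPM, wild type 8 stood at 16.9 (exact binomial 95% interval 14.2 to 20.1, counting error only) and the next sample, mutant 2, at 7.28 (5.31 to 9.75). The level in wild type 8 was 4.21 times the mean of the other 3 wild types, 4.02 ± 0.760 CPM (SD, n = 3). Fitted as a log2 difference, Fos differed by -0.0079 (SE 0.37; limma adjusted p = 0.994; exact two-sided permutation p = 0.943), with a 95% interval from -0.80 to 0.78. When wild type 8 was left out it was 0.50 (SE 0.21; limma adjusted p = 0.199; 95% interval 0.04 to 0.95).

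Fosb (ENSMUSG00000003545; chromosome 7, 19302696 to 19310051, minus strand) was the least abundant of the 8. It had 5, 10, 9 and 55 reads in wild types 1, 3, 4 and 8 and 17, 18, 2 and 8 reads in mutants 1 to 4. In log2 CPM the wild-type levels were 0.12, 0.62, 0.70 and 2.85 and the mutant levels 1.5, 1.68, -0.74 and 0.52. Wild type 8 was again the highest sample, at 6.17 times the mean CPM of the other 3 wild types, and the mutants covered the range from the lowest sample of all to above those 3. The difference was -0.33 (SE 0.57; limma adjusted p = 0.786; exact permutation p = 0.743). Its interval, -1.56 to 0.89, was the widest of the 8. The Fosb difference without wild type 8 was 0.26 (SE 0.49; limma adjusted p = 0.815).

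Junb (ENSMUSG00000052837; chromosome 8, 84974484 to 84978718, minus strand) gives the Jun-type partner that binds DNA with Fos proteins. Wild types 1, 3, 4 and 8 had levels of 4.20, 4.03, 3.99 and 4.57 log2 CPM, from 105 to 186 reads, and mutants 1 to 4 had 3.81, 3.74, 3.84 and 3.98, from 81 to 108 reads. Every mutant lay below every wild type, with 3.98 in mutant 4 just under 3.99 in wild type 4. Wild-type mice averaged 18.3 ± 3.64 CPM and mutant mice 14.1 ± 0.991 CPM (SD, n = 4 each). The difference was -0.35 (SE 0.13; 95% interval -0.63 to -0.08), with an exact permutation p of 0.0286, the smallest that 4 against 4 samples allow, and it did not pass over all genes (limma adjusted p = 0.129). Groups that did not overlap with the mutant lower were found for 4.92% of all tested genes. The Junb difference without wild type 8 was -0.23 (limma adjusted p = 0.283), and after median centring it was -0.45 and passed (limma adjusted p = 0.0471). The annotated Junb gene shares 351 bases with Prdx2, which runs the opposite way, and whether counting used strand is not given.

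**Figure D2:**
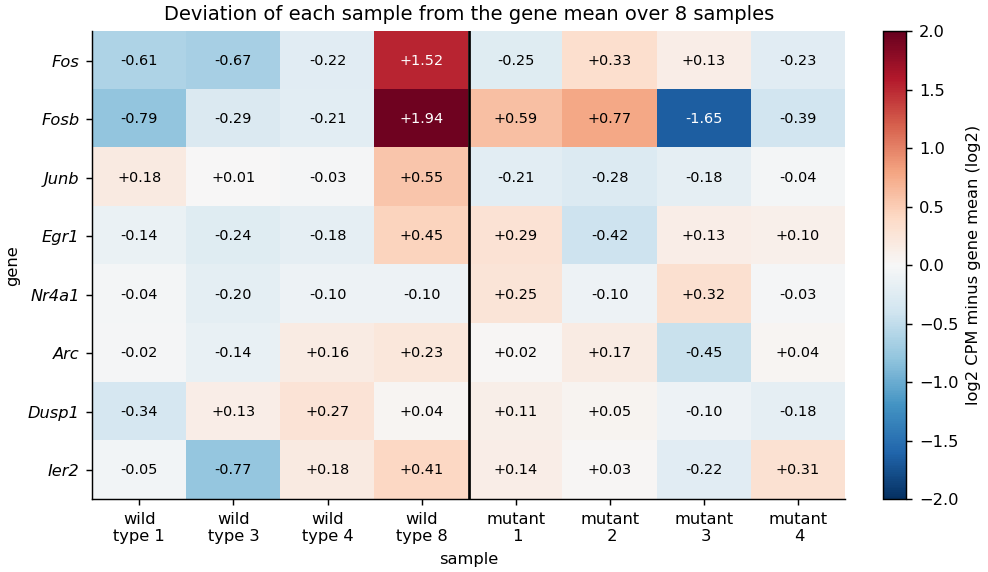
Level of each gene in each sample minus that gene's mean over the 8 samples (log2, colour and printed value), genes in rows and samples in columns, with a line between the genotypes. The column of wild type 8 is high for Fos, Fosb, Egr1 and Junb, and no other column is high in all 4.

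Egr1 and Nr4a1 encode transcription factors of other families. Egr1 (ENSMUSG00000038418; chromosome 18, 34859823 to 34864984, plus strand), a zinc finger factor induced through serum response factor, had wild-type levels (1, 3, 4, 8) of 4.14, 4.04, 4.10 and 4.73 log2 CPM and mutant levels (1 to 4) of 4.57, 3.86, 4.41 and 4.38. The first 3 wild types lay within 109 to 129 reads while wild type 8 had 208, and the mutants spread from the lowest sample, mutant 2 with 88 reads, to mutant 1 with 157. The Egr1 difference was 0.053 (SE 0.17; limma adjusted p = 0.892; exact permutation p = 0.80; 95% interval -0.30 to 0.41), and its sign turned under both scalings, to -0.039 after median centring and -0.04 after quantile normalization. Leaving out wild type 8 gave 0.21 (limma adjusted p = 0.449).

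Nr4a1 (ENSMUSG00000023034; chromosome 15, 101254269 to 101274795, plus strand) encodes the orphan nuclear receptor Nur77. It had the most reads of the 8 genes, 184, 208, 189 and 221 in wild types 1, 3, 4 and 8 and 239, 173, 243 and 205 in mutants 1 to 4. In log2 CPM the wild-type levels were 4.88, 4.72, 4.82 and 4.82 and the mutant levels 5.17, 4.82, 5.24 and 4.89. The wild types lay close together, wild type 8 among them, and mutants 1, 3 and 4 lay above all of them, mutant 4 only just (4.89 against 4.88), while mutant 2 lay inside their range. Wild-type mice averaged 27.8 ± 1.30 CPM and mutant mice 32.6 ± 4.66 CPM (SD, n = 4 each). The Nr4a1 difference was 0.22 (SE 0.10; 95% interval 0.004 to 0.43), with an unadjusted limma p of 0.0465, an adjusted p of 0.225 and an exact permutation p of 0.0857.

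Arc, Dusp1 and Ier2 encode products that are not DNA-binding factors of the AP-1, EGR or NR4A kind. Arc (ENSMUSG00000022602; chromosome 15, 74669083 to 74672570, minus strand), which acts in removing glutamate receptors from synapses, had wild-type levels (1, 3, 4, 8) of 2.42, 2.30, 2.60 and 2.67 log2 CPM and mutant levels (1 to 4) of 2.46, 2.61, 1.99 and 2.48, from 24 to 48 reads. Mutant 3 was the lowest, as it was for Fosb, and the other samples lay between 2.30 and 2.67. The Arc difference was -0.11 (SE 0.18; limma adjusted p = 0.774; exact permutation p = 0.571; 95% interval -0.50 to 0.27).

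Dusp1 (ENSMUSG00000024190; chromosome 17, 26505590 to 26562128, minus strand) encodes a phosphatase that switches off MAP kinases, and it is also a known target of the glucocorticoid receptor. Its wild-type levels (1, 3, 4, 8) were 3.99, 4.46, 4.60 and 4.37 log2 CPM and its mutant levels (1 to 4) 4.44, 4.38, 4.23 and 4.15, from 98 to 174 reads. All 4 mutants lay inside the wild-type range, whose ends were wild types 1 and 4. The Dusp1 difference was -0.056 (SE 0.13; limma adjusted p = 0.847; exact permutation p = 0.714; 95% interval -0.33 to 0.22). A long Dusp1 transcript model shares 640 bases with Ergic1, which runs the opposite way.

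Ier2 (ENSMUSG00000053560; chromosome 8, 84661331 to 84662852, minus strand), a single-exon gene for a small nuclear protein, had wild-type levels (1, 3, 4, 8) of 1.92, 1.2, 2.15 and 2.38 log2 CPM and mutant levels (1 to 4) of 2.11, 2.0, 1.75 and 2.28, from 16 to 39 reads. Its lowest and its highest sample were both wild types, and all 4 mutants lay between them. The Ier2 difference was 0.13 (SE 0.25; limma adjusted p = 0.817; exact permutation p = 0.771; 95% interval -0.40 to 0.65), and it was -0.04 after quantile normalization.

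**Figure D3:**
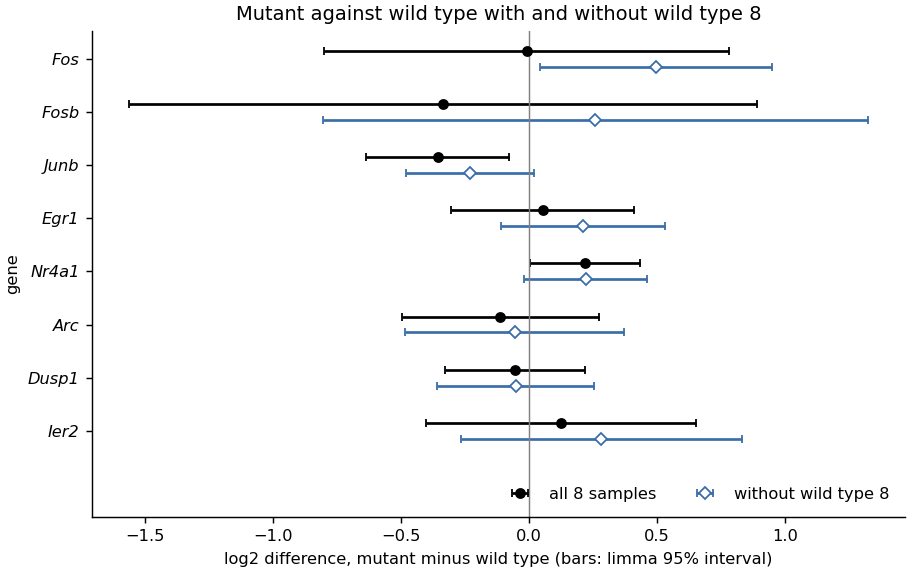
Log2 difference of each gene, mutant minus wild type, with limma's 95% interval, for all 8 samples (black) and without wild type 8 (open diamonds). Removing wild type 8 moves Fos from -0.0079 to 0.50 and Fosb from -0.33 to 0.26 and leaves Nr4a1 and Dusp1 almost in place.

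The 8 genes differed widely in how much they varied among animals of a genotype. The residual SD of Fos was 0.75 log2 units, where limma's trend over all genes gave 0.26 at that level, and that of Fosb was 1.17 against 0.41. For Egr1 it was 0.32 against 0.16, whereas for Nr4a1 it was 0.15 against 0.13, for Junb 0.20 against 0.17, for Dusp1 0.21 against 0.16, for Ier2 0.40 against 0.31 and for Arc 0.23 against 0.27. Fos, Fosb and Egr1 therefore varied more than genes of their level, and the other 5 lay near the trend. With wild type 8 left out the residual SD of Fos was 0.27 and that of Fosb still 0.88.

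Levels between genes can be compared only per length, here as CPM per kilobase of the principal GENCODE M21 transcript. In wild type the order was Nr4a1 (10.9 ± 0.509), Dusp1 (10.3 ± 1.80), Junb (10.1 ± 2.01), Egr1 (4.28 ± 1.06), Fos (3.44 ± 3.08), Ier2 (2.40 ± 0.815), Arc (1.76 ± 0.213) and Fosb (0.682 ± 0.772; SD, n = 4). In wild type the mean ± SD ranges of the leading 3 overlapped, as did those of Egr1 and Fos, Fos and Ier2, and Ier2 and Arc. The ranges of Junb and Egr1 did not overlap, nor did those of Arc and Fosb. All genes were measured in the same libraries, so overlap of ranges is a description and not a test. The mutants gave the same order, with Nr4a1 at 12.8 ± 1.83, Dusp1 at 9.80 ± 0.910, Junb at 7.79 ± 0.548 and Fosb at 0.457 ± 0.320. In the mutants the ranges of the leading 3 did not overlap, and whether the genotypes differ in this was not tested.

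The 8 genes did not move as 1 block across animals. After each genotype's mean was removed, 20 of the 28 pairs of genes had a Pearson r above 0 over the 8 samples, with a median of 0.35, and 4 pairs were above 0.7: Fosb with Arc (0.80), Egr1 with Junb (0.77), Fos with Junb (0.74) and Arc with Ier2 (0.71). Nr4a1 went against Arc (-0.56) and Dusp1 against Junb (-0.40). Leaving out wild type 8, the median over the pairs was 0.01, Fos with Junb was -0.62 and Egr1 with Junb 0.42, while Fosb with Arc stayed at 0.84. These correlations share libraries and depth and are given as a description.

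By the same measure, 13142 other genes with a mean of at least 1 log2 CPM were compared with the mean profile of the 8 genes, to which Fosb and Fos contribute most. The 5 most alike were Zcchc10 (r = 0.988 over 8 samples), Rab11fip2 (0.985), Thumpd3 (0.97), Tmed4 (0.965) and Sepw1 (0.964). Before the genotype means were removed the values were 0.982, 0.476, 0.971, 0.77 and 0.964 in the same order. Zcchc10, the closest, had wild-type levels (1, 3, 4, 8) of 1.79, 1.77, 2.10 and 2.72 log2 CPM and mutant levels (1 to 4) of 2.21, 2.0, 1.68 and 1.95. Rab11fip2 moved far less, from 5.84 to 5.96 log2 CPM in wild-type and from 5.97 to 6.01 in mutant mice. These r values were picked as the highest of 13142 over 8 samples, so their size is in part a product of the search. None of these 5 belongs to the lists of rapid response genes used here.

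In no other list of rapid response genes was wild type 8 the highest sample for most members. It was the highest of the 8 samples in 2 of 5 other AP-1 genes, 0 of 4 EGR and NAB genes, 0 of 2 NR4A relatives, 3 of 11 feedback inhibitors, 3 of 13 neuronal effectors and 2 of 26 other rapid response genes, beside 9.98% of all tested genes. Of 9 heat shock genes it was the highest in 1. Summed over the 8 genes it stood at 7.05 log2 CPM, where wild types 1, 3 and 4 had 6.51 to 6.65. Among the marker sums, that of central nervous system cells exceeded the range of the other 3 wild types by the most, at 6.70 log2 CPM against 5.55 to 6.38. Mutant ganglia had 6.03 to 6.70 for this sum. Wild type 8 was the highest wild type for 3 of the 6 tested markers of this list. One of them, the astrocyte glutamate transporter Slc1a2, was at 5.62 against 4.35 to 4.84, while Gfap, Mog and Gjb6 were higher in wild type 4. The other sums in wild type 8 were 13.14 against 13.0 to 13.1 for sensory neurons, 11.27 against 10.97 to 11.1 for satellite glia, 11.62 against 11.25 to 11.64 for Schwann cells, 5.76 against 5.53 to 6.19 for immune cells, 8.60 against 8.35 to 8.56 for endothelial cells and pericytes, and 9.25 against 9.27 to 10.26 for fibroblasts. For skeletal muscle it was 3.51 against 1.80 to 5.12, for adipocytes 2.10 against 2.70 to 3.05, and for red blood cells 6.66 against 5.32 to 6.75. The adipocyte and fibroblast sums in wild type 8 thus lay below those of the other 3 wild types. No marker gene of these lists was at 0 reads in all samples, and the part of cell makeup in the levels of wild type 8 was not tested.

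The wider response was read from 9 lists of related genes, 113 of them tested, of which 12 were called (10.6%, against 5.46% of all tested genes), 8 higher and 4 lower in the mutant. Of these 12, 5 belong to the glucocorticoid list, and without limma's variance trend 3 of the 12 remained, Camk2a, Camk4 and Hspb1. No close relative of the 8 genes was called. Of 5 tested AP-1 relatives, with a median difference of 0.04 (-0.052 after median centring), the largest difference was that of Atf3, a stress and injury factor of sensory neurons, at 0.47 (SE 0.19; limma adjusted p = 0.167). Atf3 levels were 2.19, 2.06, 1.94 and 2.70 log2 CPM in wild-type mice 1, 3, 4 and 8 and 2.46, 2.92, 2.65 and 2.75 in mutants 1 to 4, so wild type 8 lay among the mutants. Both NR4A relatives were uncalled, Nr4a3 with the larger difference at 0.29 (limma adjusted p = 0.616).

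All 4 tested EGR relatives and NAB co-repressors lay above 0 on the deposited scale, with a median of 0.38 (0.285 after median centring), and none was called. Egr2, which drives myelination in Schwann cells, had the largest difference, 0.79 (SE 0.23; limma adjusted p = 0.0644). Egr2 levels were 3.88, 3.29, 4.10 and 4.39 log2 CPM in wild-type mice 1, 3, 4 and 8 and 5.08, 4.0, 4.96 and 4.78 in mutants 1 to 4, and only mutant 2 fell within the wild-type range. Egr2 passed in 5 of 20 alternatives, among them without wild type 8 (0.94, limma adjusted p = 0.04) and without mutant 2 (1.02, limma adjusted p = 0.0125). In the other 15 it did not pass, with a limma adjusted p of up to 0.21. Beside it, 2 of 8 Schwann cell markers, a list that itself contains Egr2, were called, both higher in the mutant (Ncmap and Drp2). The 8 had a median of 0.24 and summed levels of 11.25 to 11.64 log2 CPM in wild-type and 11.5 to 11.77 in mutant ganglia, and none was at 0. The part of Schwann cells in the level of Egr2 was not tested.

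Among 11 feedback inhibitors, which dampen kinase or cytokine signals or shorten the life of messages, the median was -0.08 and 1 was called. Nfkbia, the inhibitor of NF-kappa B, rose by 0.42 (SE 0.11; limma adjusted p = 0.0386), from wild-type levels of 4.28 to 4.54 log2 CPM to mutant levels of 4.59 to 5.07. It did not pass without wild type 1, 3 or 8 or mutant 1, 2 or 4, at limma adjusted p of 0.059 to 0.107, nor after median centring (0.0917) or quantile normalization (0.0929). Zfp36, which binds and destabilizes AU-rich messages, had the largest difference, 0.48 (limma adjusted p = 0.111). It passed in 1 of 20 alternatives, without mutant 3 (0.60, limma adjusted p = 0.0399). Of 26 other rapid response genes none was called and 20 lay above 0, with a median of 0.14 (0.049 after median centring). Ctgf, a secreted matrix protein now called Ccn2, had the largest difference, 0.76 (limma adjusted p = 0.113). It passed in 3 of 20 alternatives: without wild type 4 (0.97, limma adjusted p = 0.0334), without mutant 3 (1.03, limma adjusted p = 0.0125) and with Xist as a covariate (0.89, limma adjusted p = 0.0262). In the other 17 the limma adjusted p was up to 0.338. Gadd45g, a stress-induced gene named after its values were seen, did not overlap between genotypes (0.56, limma adjusted p = 0.0516). The same held, in either direction, for 12.4% of all tested genes. Gadd45g passed without wild type 8 (0.67, limma adjusted p = 0.0347).

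Of 13 tested neuronal effectors, with a median of 0.067 (-0.025 after median centring), Per1 was called higher and Scg2 lower. Per1, a CREB target that also belongs to the circadian clock and responds to glucocorticoids, had levels of 5.75, 5.62, 5.59 and 5.65 log2 CPM in wild-type mice 1, 3, 4 and 8 and 6.36, 6.14, 6.05 and 5.90 in mutants 1 to 4, with every mutant above every wild type. Per1 rose by 0.46 (SE 0.09; limma adjusted p = 0.00865). Scg2, the neuropeptide precursor secretogranin, fell by 0.29 (SE 0.07; limma adjusted p = 0.0306), from 7.99 to 8.13 log2 CPM to 7.53 to 7.93. The Scg2 call was lost without wild type 1, 3, 4 or 8 or mutant 1 or 2, at limma adjusted p of 0.0512 to 0.0728, and after quantile normalization (0.079). Rasd1, a Ras-like protein induced by glucocorticoids, had the largest difference at 0.57 and was not called (limma adjusted p = 0.282).

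**Figure D4:**
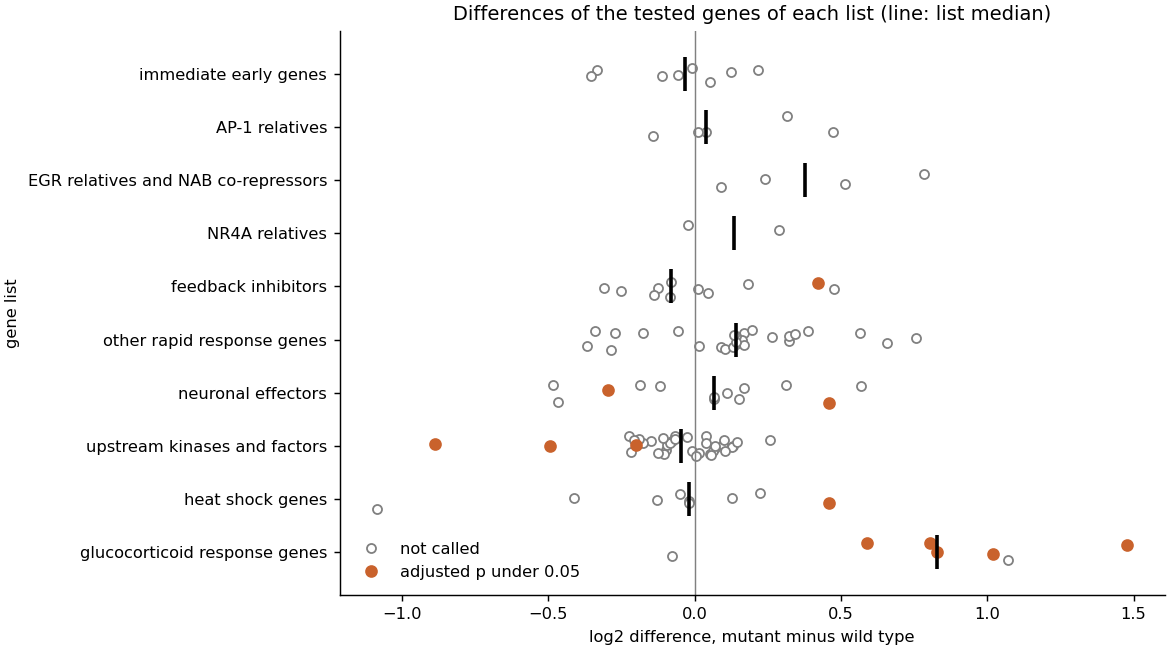
Log2 difference, mutant minus wild type, of every tested gene in each list (points, filled where the adjusted p is under 0.05), with the list median as a line. The immediate early genes spread around 0 with none filled, while 5 of 7 glucocorticoid response genes are filled to the right of 0 and 3 upstream kinases to the left.

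The kinases and factors upstream of the 8 genes held 36 tested genes, of which 3 fell, none rose and the median was -0.046. Camk2a, the calcium/calmodulin kinase II subunit abundant in neurons, had levels of 8.18, 8.10, 8.11 and 8.17 log2 CPM in wild-type mice 1, 3, 4 and 8 and 7.31, 7.43, 7.49 and 6.80 in mutants 1 to 4. The wild types were nearly equal and every mutant lay well below them. Camk2a fell by 0.89 (SE 0.11; limma adjusted p = 0.000638), and Camk4, the nuclear calcium/calmodulin kinase that phosphorylates CREB, by 0.50 (SE 0.07; limma adjusted p = 0.00194), from 5.67 to 5.82 log2 CPM to 5.16 to 5.38. Both were called in all 20 alternatives run. Mapk3, the kinase ERK1, fell by 0.20 (SE 0.05; limma adjusted p = 0.0287), from 9.49 to 9.54 to 9.23 to 9.37 log2 CPM. The Mapk3 call was lost without wild type 1, 3 or 4 or mutant 1 or 4, at limma adjusted p of 0.0515 to 0.095, with no filter (0.0589) and after quantile normalization (0.0857). Srf and Creb1, which act at the promoters, differed by 0.051 and 0.13 and were not called (limma adjusted p = 0.802 and 0.297). Beside these kinases, 1 of 8 sensory neuron markers was called, lower, with a median of -0.10 and none at 0, and the part of neuron content was not tested.

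Heat shock genes, which respond to heat and protein stress, had a median of -0.021 over 9 tested genes. Hspb1, a small heat shock protein of sensory neurons, was the 1 called: it rose by 0.46 (SE 0.07; limma adjusted p = 0.00298) and was called in all 20 alternatives. Hspa8 had the largest difference, -1.09, and was not called (limma adjusted p = 0.0922), with wild-type levels of 8.51 to 9.46 log2 CPM and mutant levels of 7.05 to 9.24. It passed in 3 of 20 alternatives: without wild type 4 (-1.30, limma adjusted p = 0.0449), without mutant 1 (-1.48, limma adjusted p = 0.0197) and with the replicate number as a block. In the other 17 the limma adjusted p was up to 0.329. Glucocorticoid response genes, which the stress hormone receptor induces, had a median of 0.83 and 5 of 7 called, all higher: Sgk1 (0.81), Fkbp5 (0.83), Tsc22d3 (0.59) and the metallothioneins Mt1 (1.02) and Mt2 (1.48). The Mt1 call was lost without wild type 1 or mutant 1 (limma adjusted p = 0.0519 and 0.0505), and the Mt2 call without wild type 1 or 4 or mutant 1, 2 or 4 (0.0536 to 0.105). With limma's robust trend Fkbp5, Mt1 and Mt2 did not pass (limma adjusted p = 0.119, 0.137 and 0.208). Beside this list, most markers of several non-neuronal cells lay above 0: satellite glia had 7 of 7 above 0 with a median of 0.25 and 2 called, fibroblasts 6 of 6 with a median of 0.30 and 1 called, and immune cells 6 of 7 with a median of 0.52 and 1 called. Skeletal muscle had 5 of 5 above 0, with a median of 1.66 and none called in limma, though all 5 had an unadjusted p under 0.05. Summed levels in wild-type and mutant ganglia were 10.97 to 11.27 and 11.15 to 11.63 log2 CPM for satellite glia, 9.25 to 10.26 and 9.63 to 10.2 for fibroblasts, and 5.53 to 6.19 and 5.97 to 6.61 for immune cells. No marker was at 0 in all samples, and the part of cell makeup in the glucocorticoid genes was not tested. Dusp1, the glucocorticoid target among the 8 genes, differed by -0.056.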

How the data were processed

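Per its name, the 1 table the authors deposited holds moderated log2 CPM, that is, library-scaled counts with a prior added and put on a log2 scale. The submitters' processing notes name Salmon 0.11.1, DESeq2 and mm9, with no role. How counting was done is not given in the sources used here. Each of 41422 lines was read once per identifier (402 were repeated with equal values). All columns share a floor of -1.79, the value of 0 reads. Above it, 100% of values were whole multiples (within 0.01) of 1 read, worth 0.125 to 0.162 CPM, which gave back reads.

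Genes above 0 log2 CPM in at least 4 of 8 samples were fitted with limma 3.58.1 (R 4.3.3; lmFit, eBayes with trend, no covariate, two-sided) and adjusted by Benjamini-Hochberg over all of them, with 0.05 as threshold. Fold changes on this scale understate those of genes with few reads. Exact permutation used all 70 assignments (Python 3.11.15, scipy 1.17.1). On simulated reads for mutant against wild type, 191 of 200 genes changed by 1 on the log2 scale were called among 15011 tested, with 19 false calls. With no change, 0 of 15081 were called. The simulation used a single dispersion (spread beyond counting noise) of 0.02 and changed only genes at levels above those of Fosb and Ier2. It therefore does not show how often such a change would be called in Fos or Fosb, with residual SDs of 0.75 and 1.17.

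The members and lists were chosen with earlier results of these data known. The genes named are the 8 members, Tmem184b, of each wider list every called gene and the one with the largest difference, and the 5 most alike. Srf, Creb1, Gadd45g, Slc1a2, Ncmap and Drp2 were added after their values were seen. Coordinates and transcripts are from GENCODE M21 (GRCm38), matched for 40254 of 40800 identifiers, and are not the build the notes name. Alternatives covered filter, prior, scaling, variance model, weighting of samples, an Xist term (sex is not stated), voom, replicate number and each sample left out. Replicates of a genotype correlated at 0.984 to 0.988 across genes, and their counts differed by more than sampling noise (chi-square per degree of freedom 2.59 to 6.86 over 12652 genes). Among 10 marker lists, called genes numbered 1 of 8 for sensory neurons, 2 of 7 for satellite glia, 2 of 8 for Schwann cells, 1 of 7 for immune cells, 1 of 6 for fibroblasts, and 0 for endothelial cells, skeletal muscle, adipocytes, red blood cells and central nervous system cells.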

Additional observations from a re-analysis of the deposited data

Results flagged for a closer look

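Over 56 sets of 4 replicate levels, 1 replicate lay well away from its neighbours in 2, while about 2.8 such sets arise by chance. Egr1 in wild type 8 stood at 4.73 log2 CPM, where wild types 1, 3 and 4 had 4.04 to 4.14. Hspb1 in mutant 4 stood at 5.93 log2 CPM, where mutants 1, 2 and 3 had 5.71 to 5.72.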

How the results depend on the processing

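No call among the 8 immediate early genes appeared in 19 of 20 alternatives, and median centring gave 1, Junb. Fos turned from -0.0079 to 0.099 with sample weights and 0.07 with Xist as a covariate, and lay between -0.231 and 0.495 with each sample left out in turn. Egr1 turned to -0.039 under median centring and -0.04 under quantile normalization (-0.035 to 0.212 with a sample left out), and Ier2 to -0.04 under quantile normalization (-0.113 to 0.282). With a sample left out the ranges were -0.654 to 0.259 for Fosb, -0.185 to 0.02 for Arc and -0.179 to 0.026 for Dusp1, and the sign of Junb and Nr4a1 held in all 20 alternatives. The median over the 8 genes ranged from -0.157 to 0.216. Over all genes, 142 were called without the variance trend, 404 to 935 with a sample left out, and 404, 495, 457 and 501 without wild type 1, wild type 3, mutant 1 and mutant 4. Calls in the wider lists, 12 as reported, were 3 without the variance trend and 7 to 17 with a sample left out, the 7 being without wild type 1. Quantile normalization gave 271 higher and 422 lower genes. The cause of these changes was not tested.

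Both genotypes have replicates numbered 1, 3 and 4, but the numbers do not pair the samples (correlations of deviations 0.081, 0.041 and 0.058). In those 6 samples 671 genes were called with the number as a replicate block and 447 without it. Fos was at 0.385 in both fits, and Egr2 at 1.18 (limma adjusted p = 0.00263 with the block, 0.00616 without). Hspa8, at -1.153, passed with the block (limma adjusted p = 0.0382) and not without it (0.171), and Nfkbia, Scg2 and Mapk3 passed in neither (0.0577 to 0.116). Depth limits Fosb, Ier2, Arc and Fos most, with 124, 207, 288 and 370 reads over the 8 libraries. Fosb was left out under the stricter filter.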
